A study of Mus musculus with 14 samples.

Results

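miR-335 and miR-574 are plasma miRNAs of a quantitative PCR (qPCR) screen in a genetically engineered mouse model (GEMM) of osteosarcoma (OS), a malignant bone tumor. They were taken as every named well of the screen whose miRNA name, without species prefix and arm, is miR-335 or miR-574. This gave 1 well each, mmu-miR-335-5p and mmu-miR-574-3p, both on panel I, or 2 of 392 named wells and 2 of 389 named miRNAs. The opposite arms, miR-335-3p and miR-574-5p, were not analysed here. The screen compared plasma of 8 GEMM mice with OS and of 6 disease-free control mice, 1 sample per mouse. The study chose both miRNAs as candidates from this screen, so a difference between the groups in these mice is not independent evidence for them.

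The OS mice carried the Cre recombinase under a 2.3 kb Col-α1(I) promoter, which is active in osteoblasts, with 1 or both Trp53 alleles flanked by LoxP sites. Which OS mice had 1 and which had both floxed alleles is not given in the labels, nor are age and sex. The control mice were wild-type littermates, which by the methods had wild-type p53 and still carried the Cre transgene. The methods give 14 OS mice for the screen, of which 8 are analysed here, and all 6 control mice. Blood was drawn by cardiac puncture into EDTA tubes once a tumor had formed. The tumor genotype cannot be told apart from the presence of a tumor in this design, because every OS mouse had both.

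A miRNA is cut from a hairpin precursor, whose arms can each give a mature strand. The bases that follow the first base of the mature strand, the seed, pair with target messenger RNAs and lead to their repression. Many miRNA hairpins lie inside protein-coding genes and can be made from the same primary transcript as the host. miR-335 lies within Mest, an imprinted gene of mesodermal tissue expressed from the paternal allele, and in human breast cancer miR-335 is known as a suppressor of metastasis. miR-574 lies within Fam114a1, and its 5p arm is built of repeated guanine and uracil. In plasma, miRNAs come from many tissues and from lysed blood cells, and red cells are the main source of miR-451.

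The mature strands are shown with the seed (bases 2 to 8) in capitals, because these are the molecules that the 2 wells measured and the arms that were not analysed here. All sequences and coordinates are from RefSeq on GRCm38.p6.
mmu-miR-335-5p: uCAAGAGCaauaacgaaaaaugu
mmu-miR-335-3p: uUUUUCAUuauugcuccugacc
mmu-miR-574-5p: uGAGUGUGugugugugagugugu
mmu-miR-574-3p: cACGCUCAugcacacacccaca
The 4 seeds differed from each other, and none was shared with another of the 1738 mature mouse miRNAs in the RefSeq table, so neither miRNA had a seed family member in that table. The mature strand of miR-335-5p has 23 bases and a GC content of 30.4%, that of miR-574-3p has 22 bases and a GC content of 59.1%.

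The hairpins are shown whole, with both mature strands in capitals, to place the measured arm within its precursor.
Mir335: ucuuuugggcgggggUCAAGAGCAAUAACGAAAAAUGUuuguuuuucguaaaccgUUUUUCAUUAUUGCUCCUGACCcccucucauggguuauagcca
Mir574: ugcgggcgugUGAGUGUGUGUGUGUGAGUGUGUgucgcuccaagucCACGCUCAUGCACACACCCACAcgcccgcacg
Mir335 lies at chr6:30741299-30741396 on the plus strand, inside the span of Mest (chr6:30733506-30748466) on the same strand and 7793 bases after its start. Mir574 lies at chr5:64970318-64970395 on the plus strand, inside the span of Fam114a1 (chr5:64970075-65041901) on the same strand and only 243 bases after its start. The same bases of Mir574 also lie in the span of Tlr6 (chr5:64953092-64970942), which is on the other strand. The table gives gene spans and not exons, so whether a hairpin lies in an exon or an intron was not resolved from it. A mature strand in plasma does not carry the genomic position it came from, and the levels of Mest and Fam114a1 were not measured.

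Levels were read as the quantification cycle (Cq), the number of PCR cycles a well needs to reach a set fluorescence. Each cycle less stands for about a doubling of the miRNA, so Cq is a log2 scale that runs downwards. Cq values ran to 40 and those above 37 were treated as missing. The normalized level is the mean Cq over all miRNAs kept in a mouse minus the Cq of the miRNA, and a level of 0 is that of the mean miRNA. The levels of different wells are not compared with each other, since primers differ in efficiency. No counts of molecules lie behind a Cq, and the precision is given by the spread between mice. Of the 768 wells per mouse, 13.9% to 24.7% were blank, and 388 miRNAs were tested, 276 of them measured in every mouse. Correlations of the 276 miRNAs between mice lay between 0.74 and 0.96 over the 91 pairs of mice, and no 2 mice held identical values.

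Both miRNAs were detected in 8 of 8 OS mice and in 6 of 6 control mice. miR-335-5p amplified late, at Cq 30.04 to 34.46 in OS mice and 32.19 to 35.32 in control mice. With a limit of Cq 35 it was detected in 8 of 8 OS mice and 5 of 6 control mice (Fisher's exact test, two-sided, p = 0.43), and control replicate 1 was the mouse that was lost. miR-574-3p amplified earlier in every mouse, at Cq 25.11 to 29.94 in OS mice and 27.89 to 29.42 in control mice, and no Cq limit removed it.

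Normalized levels of miR-335-5p in OS mice were 0.85 in replicate 10, 1.73 in replicate 11, -0.18 in replicate 12, -2.29 in replicate 15, -1.29 in replicate 16, -1.41 in replicate 17, -1.19 in replicate 18 and -0.48 in replicate 19. In control mice they were -2.48 in replicate 1, -0.68 in replicate 2, -2.49 in replicate 3, -1.25 in replicate 4, -2.23 in replicate 13 and -2.82 in replicate 14. Replicates 10, 11, 12 and 19 of the OS mice lay above every control mouse, and the other 4 OS mice lay within the control range. The highest control mouse, replicate 2, was above 4 OS mice. The mean was -0.53 ± 1.31 in OS mice (SD, n = 8) and -1.99 ± 0.84 in control mice (SD, n = 6).

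Normalized levels of miR-574-3p in OS mice were 5.46 in replicate 10, 6.32 in replicate 11, 6.56 in replicate 12, 2.23 in replicate 15, 6.54 in replicate 16, 3.55 in replicate 17, 3.35 in replicate 18 and 4.26 in replicate 19. In control mice they were 4.16 in replicate 1, 3.33 in replicate 2, 2.36 in replicate 3, 4.22 in replicate 4, 1.63 in replicate 13 and 2.46 in replicate 14. Replicates 10, 11, 12, 16 and 19 of the OS mice lay above every control mouse, although replicate 19 did so by a small margin. OS replicate 15 was the lowest OS mouse for both miRNAs and lay below 5 of the 6 control mice for miR-574-3p. The mean was 4.78 ± 1.67 in OS mice (SD, n = 8) and 3.03 ± 1.05 in control mice (SD, n = 6).

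**Figure D1:**
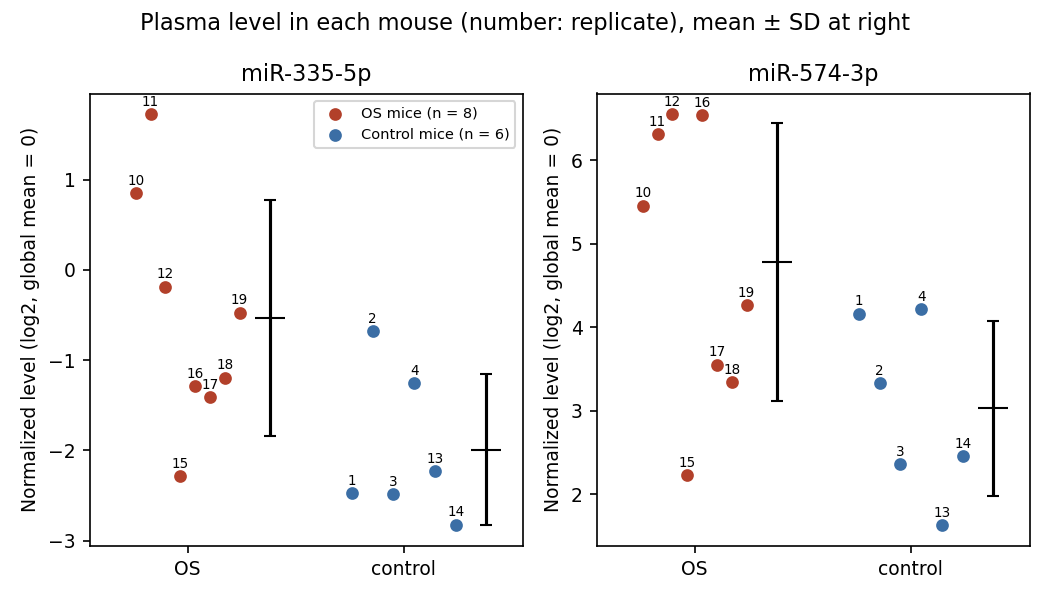
Normalized plasma level (log2, the mean of all miRNAs in a mouse is 0) of miR-335-5p (left) and miR-574-3p (right) in 8 OS mice and 6 control mice. Points are mice with their replicate number, and the bar beside each group is the mean ± SD. For miR-335-5p, 4 OS mice sit above all control mice, for miR-574-3p 5 do, and OS replicate 15 is the lowest OS mouse in both.

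OS mice were spread more widely than control mice for both miRNAs, and more widely than most miRNAs of the screen. Among the 276 miRNAs measured in every mouse, the SD over OS mice placed miR-574-3p 15th and miR-335-5p 42nd from the widest, against a median SD of 0.84. Over control mice miR-574-3p was 48th and miR-335-5p 85th, against a median SD of 0.68.

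The question of the screen was which plasma miRNAs differ between OS and control mice. In the limma fit over all 388 miRNAs, miR-335-5p was 1.46 higher in OS mice on the log2 scale (SE 0.56, 95% confidence interval 0.29 to 2.63), a 2.75-fold difference, with an unadjusted p of 0.018 and an adjusted p of 0.098. miR-574-3p was 1.76 higher (SE 0.68, 95% confidence interval 0.33 to 3.19), a 3.38-fold difference, with an unadjusted p of 0.019 and an adjusted p of 0.10. Neither passed the threshold of an adjusted p of 0.05, so 0 of the 2 miRNAs were called. Of all miRNAs tested, 6.19% were called higher (24) and 6.44% lower (25), 12.6% in all. With the 3 reference miRNAs as the scaling the split was 22 higher and 11 lower, with the median 28 and 14, and without scaling 4 and 17. At an unadjusted limma p under 0.05 both miRNAs were higher, as were 16.0% of all tested. The methods' t-test on filled values, with Benjamini-Hochberg adjustment, also called neither (adjusted p = 0.14 for miR-335-5p and 0.16 for miR-574-3p). The labels do not give the litters of the mice, and the tests treat each mouse as independent. The p-values set the group difference against the spread between these mice. In plasma, the number of cells that release a miRNA and the amount released per cell cannot be told apart.

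Leaving out OS replicate 15 changed the call. Without it the difference was 1.71 for miR-335-5p (limma, adjusted p = 0.034) and 2.12 for miR-574-3p (limma, adjusted p = 0.026), and both were called. Leaving out each of the other 13 mice in turn called neither, with differences from 1.13 to 1.72 for miR-335-5p and from 1.47 to 2.00 for miR-574-3p. That mouse had a haemolysis marker, taken as a measure of red cell lysis, of 6.36 cycles, second highest among the OS mice. The part of this mouse in the result was not tested beyond leaving it out.

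The methods name miR-191, miR-103 and miR-423-3p as reference miRNAs, that is miRNAs taken as stable in plasma against which others are expressed. Set against the mean of these 3, miR-335-5p was at -4.40 ± 0.95 in OS mice and -5.80 ± 0.81 in control mice (SD, n = 8 and 6), a difference of 1.40 (exact permutation test over 3003 splits, two-sided, p = 0.014). miR-574-3p was at 0.92 ± 1.41 in OS mice and -0.78 ± 1.30 in control mice, a difference of 1.70 (exact permutation p = 0.043). The same exact test on the globally normalized levels gave p = 0.034 for miR-335-5p and p = 0.049 for miR-574-3p. Adjusted over the 5 exact tests of levels and of their difference, each of these 4 had p = 0.061 and none passed 0.05 (0.00033 is the smallest p that these splits can give).

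The reference miRNAs themselves did not move alike, and the size of the difference followed the reference chosen. In the limma fit miR-103 fell by 1.28 in OS mice (SE 0.36, adjusted p = 0.030, and 0.16 once the haemolysis marker was a covariate), miR-191 differed by 0.42 (adjusted p = 0.50) and miR-423-3p by 1.03 (adjusted p = 0.11). Against miR-103 alone, miR-335-5p was at -4.99 ± 1.56 in OS mice and -7.73 ± 1.16 in control mice, 6.69-fold higher, and 7 of 8 OS mice were above every control mouse. Against miR-423-3p alone, it was at -4.01 ± 0.60 in OS mice and -4.44 ± 0.54 in control mice, a 1.35-fold difference, and 1 of 8 OS mice was above every control mouse. The limma difference for miR-335-5p was therefore 2.74 against miR-103 (adjusted p = 0.0068), 1.03 against miR-191 (adjusted p = 0.22) and 0.43 against miR-423-3p (adjusted p = 0.36). For miR-574-3p it was 3.04 against miR-103 (adjusted p = 0.013), 1.33 against miR-191 (adjusted p = 0.25) and 0.73 against miR-423-3p (adjusted p = 0.29). Exact permutation tests adjusted over these 6 comparisons passed for miR-103 (p = 0.032 for miR-335-5p and 0.040 for miR-574-3p) and for neither of the others (0.13 to 0.23).

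**Figure D2:**
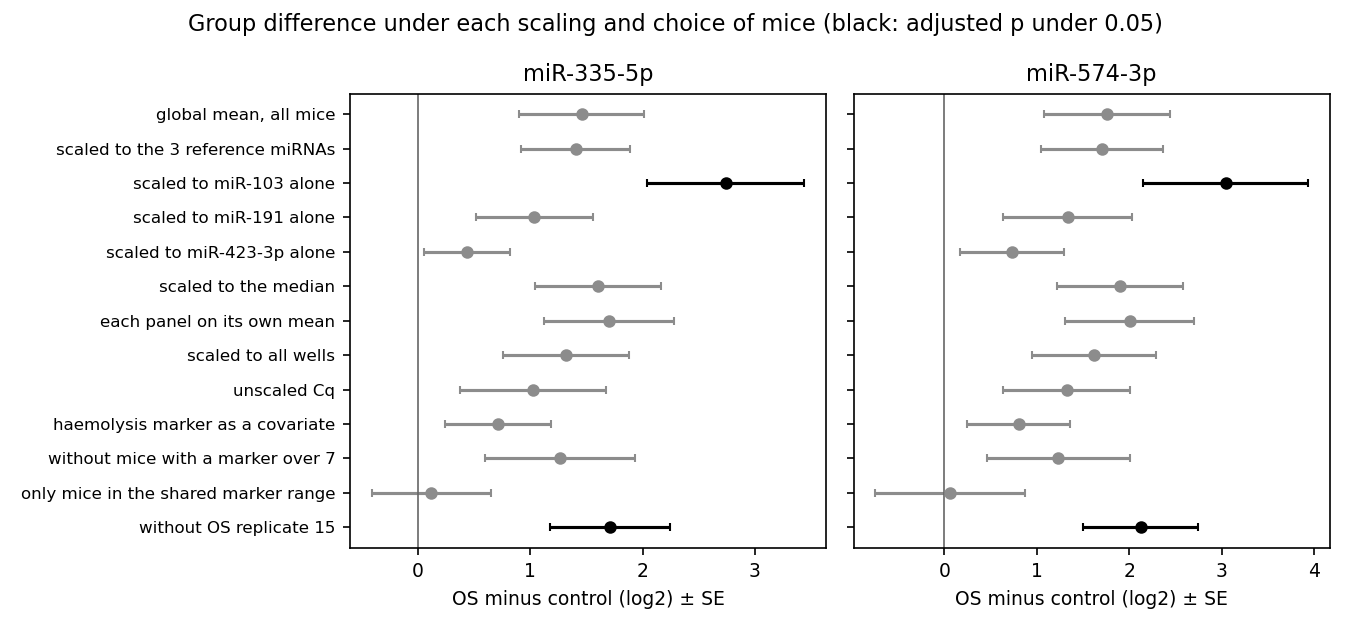
Difference between OS and control mice (log2, OS minus control) of miR-335-5p (left) and miR-574-3p (right) under 13 choices of scaling and of mice, as the limma estimate ± SE. Black points have an adjusted p under 0.05: scaling to miR-103 alone and leaving out OS replicate 15 gave such points for both miRNAs. In the mice that share a marker range the estimates were 0.12 and 0.06, a choice that leaves out the 3 OS mice highest in miR-335-5p.

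The difference between both miRNAs within a mouse does not depend on any scaling. miR-335-5p minus miR-574-3p was -5.32 ± 1.26 in OS mice (SD, n = 8) and -5.02 ± 1.03 in control mice (SD, n = 6), and the group difference of -0.30 was smaller than the spread between mice (exact permutation p = 0.66). Most OS mice lay close together: OS replicates 10, 11, 15, 17, 18 and 19 were between -4.96 and -4.52, whereas replicate 12 was at -6.74 and replicate 16 at -7.83. In control mice the values ran between -6.64 in replicate 1 and -3.86 in replicate 13. OS replicate 16 thus had miR-574-3p among the highest of all mice with miR-335-5p within the control range.

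Across all 14 mice the levels of both miRNAs moved together. Pearson's r was 0.73 (100000 permutations, p = 0.0030, adjusted p = 0.0083) and Spearman's rho was 0.69 (p = 0.0077, adjusted p = 0.027). Without OS replicates 12 and 16, the mice farthest from the median of miR-574-3p, r was 0.86. Within the 8 OS mice r was 0.67 (exact permutation p = 0.075, adjusted p = 0.11), and without OS replicates 12 and 15 it was 0.54. The 6 control mice fell into separate sets by miR-574-3p, so no r is given for them. The p-values were adjusted over 14 relations that were computed between both miRNAs, the marker, miR-214 and miR-205-5p. A further 7 relations are not given, because a gap of over 1/3 of the range with 3 or more mice on either side split the mice into sets, a limit chosen after the values were seen.

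The haemolysis marker subtracts the Cq of miR-451 from that of miR-23a. It is used as a measure of red cells that have burst into the plasma, because miR-451 is abundant in red cells and miR-23a is not. Most but not all red cell miRNAs followed the marker over the 14 mice, besides miR-451, of which it is made. Pearson's r was 0.82 for miR-144 and miR-16-1*, 0.75 for miR-15b, 0.73 for miR-16 and 0.72 for miR-20a. It was 0.64 for miR-93, 0.62 for miR-25 and 0.52 for miR-15b*, but 0.20 for miR-486, 0.07 for miR-486* and -0.36 for miR-93*. White cell miRNAs were split, at 0.86 for miR-142-5p, 0.75 for miR-142-3p, 0.69 for rno-miR-146b, 0.68 for miR-146b, 0.62 for miR-155 and 0.44 for miR-150. Others were at 0.22 for miR-223, -0.10 for miR-181a, -0.22 for miR-146a, -0.29 for rno-miR-223 and -0.89 for miR-342-3p. Whether the marker reflects red cell lysis alone in these mice was not tested. The marker was 1.05, 2.97, 2.59, 6.36, 5.03, 4.26, 6.85 and 4.42 cycles in OS replicates 10, 11, 12, 15, 16, 17, 18 and 19. It was 4.38, 4.99, 7.03, 4.11, 7.21 and 6.88 cycles in control replicates 1, 2, 3, 4, 13 and 14. OS mice averaged 4.19 ± 1.94 cycles and control mice 5.77 ± 1.43 cycles (exact permutation p = 0.12), and 3 OS mice lay below every control mouse. The control mice formed 2 sets of 3, at 4.11 to 4.99 and at 6.88 to 7.21 cycles.

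Both miRNAs were lower where the marker was higher. For miR-335-5p, r with the marker over 14 mice was -0.79 (permutation p = 0.00081, adjusted p = 0.0043) and rho was -0.71 (adjusted p = 0.027). Without the mice farthest from the median marker, OS replicate 10 and control replicate 13, r was -0.72. For miR-574-3p, r was -0.79 (permutation p = 0.00093, adjusted p = 0.0043), rho was also -0.79 (adjusted p = 0.011), and r stayed at -0.79 without the same mice. Within OS mice r was -0.78 for miR-335-5p (exact permutation p = 0.023, adjusted p = 0.047) and -0.66 for miR-574-3p (exact permutation p = 0.082, adjusted p = 0.11). The first was not past 0.05 by rank (rho -0.69, adjusted p = 0.12). No r is given within control mice, whose marker values lay in separate sets. The 3 control mice with the higher marker held 3 of the 4 lowest levels of miR-335-5p among control mice and the 3 lowest of miR-574-3p.

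**Figure D3:**
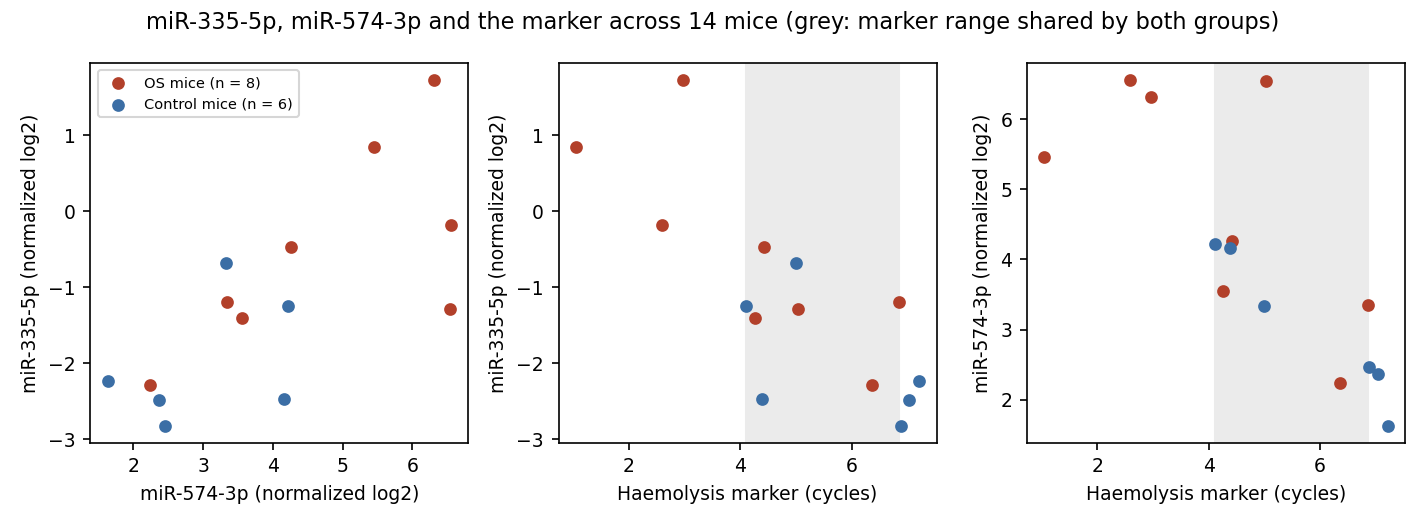
miR-335-5p against miR-574-3p (left), and each against the haemolysis marker in cycles (middle and right), with 1 point per mouse in 8 OS mice and 6 control mice. Levels are normalized log2 values, and the grey band is the marker range of 4.11 to 6.85 cycles that both groups share. Both miRNAs are lower at a higher marker, and the 3 OS mice left of the band hold the 3 highest levels of miR-335-5p.

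The relation with the marker was among the strongest negative ones in the screen. Over the 276 miRNAs measured in every mouse, r with the marker ran between -0.89 and 0.96 with a median of 0.08, and 53 miRNAs were below -0.5 and 71 above 0.5. These include miR-451 (0.96, the highest) and miR-23a (-0.76), whose r is built in because the marker is made of them. miR-574-3p had the 12th lowest and miR-335-5p the 13th lowest r. With each group centred on its own mean, r was -0.73 for both miRNAs, at place 16 for miR-574-3p and 17 for miR-335-5p. Both parts of the marker moved with these miRNAs: miR-335-5p had r = -0.78 with miR-451 and 0.56 with miR-23a, and miR-574-3p had r = -0.74 with miR-451 and 0.65 with miR-23a. Without scaling, r with miR-451 was -0.38 for miR-335-5p and -0.53 for miR-574-3p. These r values are descriptions over mice whose levels share plates and scaling.

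**Figure D4:**
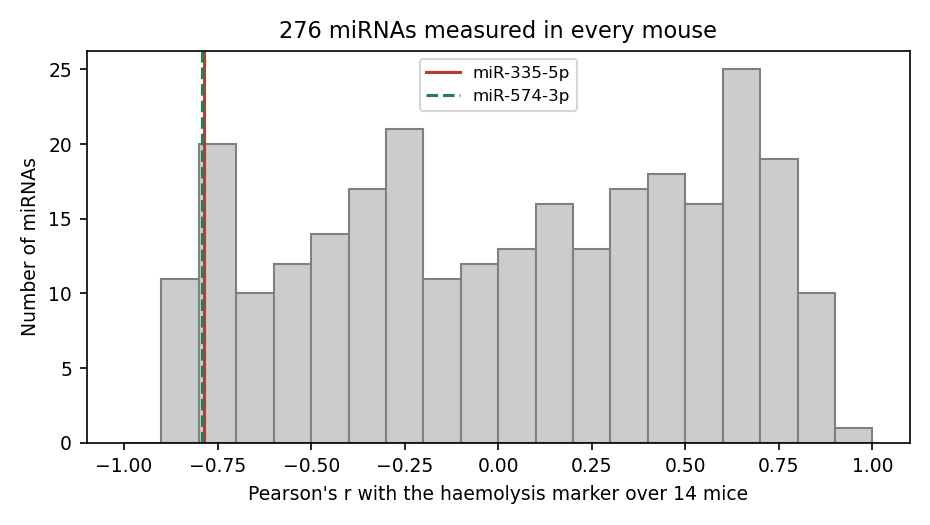
Number of miRNAs (vertical axis) by Pearson's r of the normalized level with the haemolysis marker over 14 mice (horizontal axis), for the 276 miRNAs measured in every mouse. The lines mark miR-335-5p and miR-574-3p, both at -0.79 near the lower end of a distribution with a median of 0.08. The 276 include miR-451 (0.96) and miR-23a (-0.76), of which the marker is made.

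The group difference of both miRNAs was smaller once the marker was taken into account. With the marker as a covariate in the limma fit, miR-335-5p was 0.71 higher in OS mice (95% confidence interval -0.28 to 1.71, adjusted p = 0.47) and miR-574-3p 0.80 higher (95% confidence interval -0.38 to 1.99, adjusted p = 0.51). Without control replicates 3 and 13, whose marker was over 7, the differences were 1.26 (adjusted p = 0.27) and 1.23 (adjusted p = 0.37). In the 8 mice inside the marker range that both groups share (5 OS and 3 control mice, a subset chosen after the values were seen), the marker averaged 5.38 ± 1.16 cycles in OS mice and 4.49 ± 0.45 cycles in control mice. There miR-335-5p averaged -1.33 ± 0.65 in OS mice and -1.47 ± 0.92 in control mice, a difference of 0.14 (exact permutation p = 0.73, smallest possible p 0.018). miR-574-3p averaged 3.99 ± 1.60 in OS mice and 3.90 ± 0.50 in control mice, a difference of 0.08 (exact permutation p = 0.88). The limma fit over these mice, with the zero point taken anew, gave 0.12 for miR-335-5p (95% confidence interval -1.05 to 1.29, adjusted p = 0.98) and 0.06 for miR-574-3p (95% confidence interval -1.72 to 1.85, adjusted p = 0.99). The interval for miR-574-3p holds the difference over all mice, and that for miR-335-5p ends just below it. The shared range left out OS replicates 10, 11 and 12, the 3 highest in miR-335-5p. It also left out control replicates 3, 13 and 14, the 3 lowest control mice in miR-574-3p. A smaller difference was thus built into this choice of mice, and it does not show what the marker accounts for. Unlike over all mice, the marker was higher in OS than in control mice there. After both miRNAs were regressed on the marker, r between them over the 14 mice was 0.29 (permutation of the residuals, p = 0.30). A different marker level and the presence of a tumor cannot be told apart in the 3 OS mice whose marker lay below every control mouse.

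Among the other candidates of the study, miR-214 was higher where both miRNAs were higher, and no relation with miR-205-5p passed the test within a group. miR-214, which is abundant in mesenchymal cells, had r = 0.87 with miR-574-3p over 14 mice (permutation p = 8e-05, adjusted p = 0.0011) and 0.83 without OS replicates 10 and 11. Within OS mice r was 0.82 (exact permutation p = 0.014, adjusted p = 0.032), although it was 0.48 without OS replicates 15 and 18, the lowest in miR-214. With miR-335-5p, miR-214 had r = 0.74 over 14 mice (permutation p = 0.0023, adjusted p = 0.0079). This r was 0.55 (permutation p = 0.064) without OS replicates 10 and 11, and 0.67 to 0.81 in the 12 fits without 1 mouse that gave an r. Within OS mice that r was 0.71 (exact permutation p = 0.050, adjusted p = 0.088), and within control mice it was 0.06 (exact permutation p = 0.92). The level of miR-205-5p, a miRNA of epithelia whose well is named miR-205, did not overlap between the groups, at 1.27 to 2.36 in OS mice and 5.00 to 6.54 in control mice, so no pooled r is given. Within OS mice its r was -0.40 with miR-335-5p (exact permutation p = 0.32) and -0.58 with miR-574-3p (exact permutation p = 0.14). Within control mice it was 0.54 with miR-335-5p (exact permutation p = 0.26).

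The miRNA most alike in pattern to miR-335-5p over the 14 mice was miR-423-3p, one of the reference miRNAs of the study, with r = 0.93 among 275 other miRNAs measured in every mouse. miR-423-3p was measured in 2 wells, and r with miR-335-5p was 0.93 for the well on panel I and 0.92 for the well on panel II. It kept the first place with group means removed (r = 0.89), against the 3 references (r = 0.87) and without scaling (r = 0.93). The scaling to the 3 references is no separate check here, because the Cq of miR-423-3p is part of it. Next came miR-212-3p (r = 0.89), miR-874 (r = 0.85), miR-328 (r = 0.82) and miR-28* (r = 0.82). Of these, miR-212-3p was called, 1.60 higher in OS mice (limma, SE 0.49, adjusted p = 0.041), a call that was kept in 4 of the 14 fits without 1 mouse and lost with the marker as a covariate (1.04, adjusted p = 0.28), whereas miR-874 was 1.15 higher without passing the test (limma, adjusted p = 0.075). The least alike were miR-34c (r = -0.82), miR-141 (r = -0.82) and rno-miR-338 (r = -0.83). Without scaling these were -0.48, -0.42 and -0.26, and miR-328 stood at place 34 (r = 0.51) against the 3 references. miR-141 belongs to the epithelial miR-200 family and fell by 2.23 in OS mice (limma, SE 0.61, adjusted p = 0.026, and 0.17 with the marker as a covariate). miR-574-3p stood at place 17 in this order. These miRNAs also had a relation with the haemolysis marker. The most alike had r with it of -0.86 (miR-423-3p), -0.72 (miR-212-3p), -0.80 (miR-874), -0.75 (miR-328) and -0.71 (miR-28*). The least alike had 0.69 (miR-34c), 0.72 (miR-141) and 0.72 (rno-miR-338). Likeness to miR-335-5p apart from the marker was not tested.

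For miR-574-3p the most alike was miR-342-3p (r = 0.92), a miRNA abundant in lymphocytes, followed by miR-674* (r = 0.91), rno-miR-214 (r = 0.91), miR-877 (r = 0.91) and miR-501-3p (r = 0.88). Of these 5, 2 were called higher in OS mice, miR-674* by 1.64 (limma, SE 0.52, adjusted p = 0.044) and rno-miR-214 by 2.34 (limma, SE 0.69, adjusted p = 0.035), the rat-named well for miR-214. miR-342-3p was 0.97 higher and did not pass (limma, adjusted p = 0.15). The least alike were miR-15a (r = -0.85), miR-142-5p (r = -0.85) and miR-32 (r = -0.86), at -0.51, -0.43 and -0.63 without scaling, of which miR-15a fell by 1.66 in OS mice (limma, SE 0.47, adjusted p = 0.030). miR-335-5p stood at place 26. With the haemolysis marker, the most alike had r = -0.89 (miR-342-3p), -0.81 (miR-674*), -0.84 (rno-miR-214), -0.68 (miR-877) and -0.78 (miR-501-3p). The least alike had 0.83 (miR-15a), 0.86 (miR-142-5p) and 0.84 (miR-32). Likeness to miR-574-3p apart from the marker was not tested. The r values of likeness are descriptions across mice, chosen as the extremes of the screen, and share depth of plasma RNA, plates, scaling and the relation with the marker.

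The strands of the miRNAs most alike in pattern are shown, seed in capitals, to set their seeds beside those of the candidates.
mmu-miR-423-3p: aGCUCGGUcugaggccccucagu
mmu-miR-212-3p: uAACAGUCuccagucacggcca
mmu-miR-342-3p: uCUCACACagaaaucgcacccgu
None of these seeds was shared with miR-335-5p, miR-574-3p or each other. Mir423 and Mir212 strands come from chromosome 11 and that of miR-342-3p from chromosome 12, away from both hairpins.

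**Figure D5:**
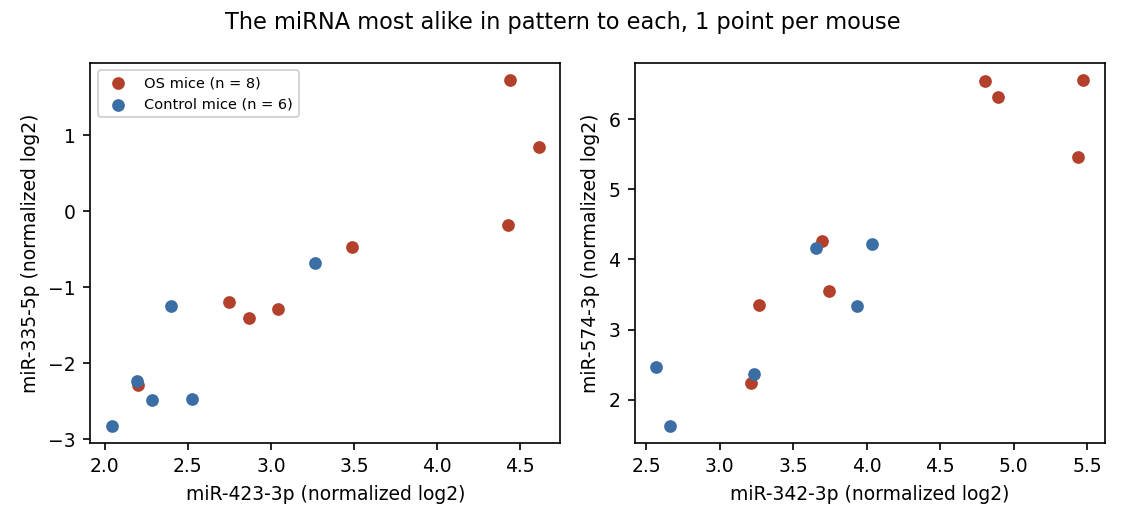
Normalized log2 level of miR-335-5p against miR-423-3p (left) and of miR-574-3p against miR-342-3p (right), 1 point per mouse in 8 OS mice and 6 control mice. The pairs had r = 0.93 and r = 0.92, and in both the higher levels of one miRNA lie with higher levels of the other.

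Lists of related miRNAs place both among their classes. Of the 26 mesenchymal miRNAs tested 2 were called higher, both wells of miR-214, and 0 lower, or 7.69% against 12.6% of all 388, with a median difference of -0.26, against -0.0027 over all 388. The calls of both wells were lost with the haemolysis marker as a covariate (limma, adjusted p = 0.28 for miR-214 and 0.22 for rno-miR-214). The list of imprinted loci outside the Dlk1-Dio3 and Sfmbt2 clusters held miR-335-5p and miR-296-5p, of which neither passed the test. The GU-repeat list was made by family name with any arm, and likeness of its strands to miR-574-5p was not tested. Of its 13 miRNAs, miR-466j was 1.94 higher (limma, SE 0.60, adjusted p = 0.041) and miR-467b fell by 1.67 in OS mice (limma, SE 0.41, adjusted p = 0.021, measured in 5 OS and 5 control mice), and the other 11 did not pass. This is 15.4% called, near the 12.6% of all miRNAs, and the call of miR-466j was kept in 4 of the 14 fits that left out 1 mouse. A gene span on the same strand was found for 125 of the 388 miRNAs, of which 3 were called higher and 4 lower (5.60%). This check is void for hosted miRNAs as a class, because only 300 of the 388 could be matched to the RefSeq table.

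Markers of blood cells and of other tissues were read as whole lists beside these values. Of 13 red cell miRNAs 3 were called lower and 0 higher in OS mice, or 23.1% called, against 6.44% lower and 12.6% in all over the 388. miR-144 fell by 2.38 (limma, adjusted p = 0.013), miR-15b* fell by 1.49 (adjusted p = 0.025) and miR-16-1* fell by 1.68 (adjusted p = 0.043). The other 10 did not pass, and 3 of the 13 differed by more than 0: miR-486 (0.05), miR-486* (0.04) and miR-93* (0.02). The summed level of the red cell list ran between 9.90 and 13.03 in OS mice and between 12.06 and 14.07 in control mice (log2, 12 miRNAs measured in every mouse). Such a sum leans on the most abundant wells, whose primers may differ in efficiency. miR-451 alone averaged 11.19 in OS mice and 12.62 in control mice, so this sum is not a reading apart from the marker. miR-451, the defining red cell miRNA, differed by -1.43 without passing (limma, adjusted p = 0.13), and miR-23a differed by 0.14 (adjusted p = 0.83). Of 12 white cell miRNAs 2 were called lower and 0 higher, or 16.7% called against 12.6% of the 388: miR-142-3p fell by 3.57 (limma, adjusted p = 0.0033) and miR-146b fell by 1.29 (adjusted p = 0.041). The other 10 did not pass, among them the rat-named well for miR-146b (-0.98, limma, adjusted p = 0.11). In this list 3 of the 12 differed by more than 0: miR-342-3p (0.97, limma, adjusted p = 0.15), miR-146a (0.08) and miR-150 (0.02). The summed level of the white cell list, which also leans on its most abundant wells, ran between 7.80 and 8.47 in OS mice and between 8.37 and 9.60 in control mice. None of the 5 platelet, 8 muscle and heart and 4 liver miRNAs was called by limma, with 2, 1 and 0 of them at an unadjusted p under 0.05. Over all 388 miRNAs, 12.6% were called and 119 had an unadjusted limma p under 0.05. miR-451, miR-142-3p, miR-126-3p, miR-133a and miR-122, which define these lists, were measured in every mouse, and the part of these cells in the levels of both candidates was not tested apart from the haemolysis marker.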

How the data were processed

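Per the paper's methods, the authors measured plasma RNA by qPCR on a pair of Exiqon mouse panels and loaded the raw values in GenEx Pro for calibration between plates and removal of outliers. The deposited Cq values (log2 scale) are from before normalization, and nothing in the sources used here says whether calibration and outlier removal came first. A deposited table of other values holds the authors' fold changes and p-values, which were not used, and the miRNA name of each well, which was.

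Values over Cq 37 were treated as missing. The 388 miRNAs missing in fewer than 75% of mice were kept. The mean Cq of a mouse over these miRNAs was its zero point, with missing values filled for that mean only by the group mean or, failing that, Cq 38. Wells of 3 miRNAs measured in duplicate were averaged. Groups were compared with limma 3.58.1 in R 4.3.3 (lmFit and eBayes, two-sided, Benjamini-Hochberg over 388, threshold 0.05), which was tested on simulated data. Single values were compared by exact permutation tests, detection by Fisher's exact test, and correlations by permutation (100000, or all orders within a group), in Python 3.11.15.

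miRNAs named were both candidates, those of the marker, the references, miR-205-5p and miR-214, the 5 most and 3 least alike in pattern, and at most 4 from each list, by smallest p. The red and white cell miRNAs measured in every mouse were also named, with their r with the marker. Members and lists were chosen with earlier results of these data known. Alternatives were other scalings, Cq limits, treatments of missing values, filters, the methods' t-test, the marker as a covariate, a marker limit of 7, and leaving out each mouse. Single reference miRNAs, the shared marker range and regression on the marker were added after the data were seen. Hosts were looked up by gene span, since exons were not used here.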

Additional observations from a re-analysis of the deposited data

How the results depend on the processing

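No paired analysis was possible because the groups share no replicate numbers. Both miR-335-5p and the other candidate, miR-574-3p, were higher in OS mice under every alternative run. Past an adjusted p of 0.05 were only the fits without OS replicate 15 (1.71 and 2.12) and those scaled to miR-103 alone (2.74 and 3.04). Leaving out each mouse gave 1.13 to 1.72 for miR-335-5p and 1.47 to 2.12 for miR-574-3p. Against the 3 references it gave 1.15 to 1.65 and 1.37 to 2.09, where the adjusted exact p passed 0.05 without OS replicate 15 (0.020 for both), OS replicate 18 (0.046 for both) and, for miR-335-5p, control replicate 2 (0.031). The difference between both miRNAs ran from -0.62 to 0.06 and changed sign without OS replicate 16 (0.061) and without the mice over a marker of 7 (0.034). The correlation of both over all mice was 0.67 to 0.83 in 13 of the 14 fits without 1 mouse. After regression on the marker it was 0.29, no longer past the threshold. Fits in which a gap split the mice into sets gave no r here or below. Without 1 mouse, correlations with the marker were -0.85 to -0.73 for miR-335-5p (14 fits) and -0.89 to -0.76 for miR-574-3p (13 fits). Those with miR-214 were 0.67 to 0.81 (12 fits) and 0.85 to 0.94 (11 fits). Scaling moved the r with the marker further. Against the 3 references it was -0.77 for miR-335-5p and -0.72 for miR-574-3p. Unscaled Cq gave -0.62 for miR-335-5p (permutation, adjusted p = 0.038), and none is given for miR-574-3p.

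The counts of calls varied with the mice, the marker and the scaling. Leaving out each mouse gave 20 (without control replicate 3) to 73 called (without OS replicate 15), 13 to 35 higher and 7 to 38 lower, 1 to 10 higher and 1 to 11 lower among hosted miRNAs, and 1 to 7 called among the mesenchymal, GU-repeat and imprinted lists and the candidates of the study (the lists named here), against 5 over all mice. Over all mice 49 of 388 were called, with 3 higher and 4 lower among the 125 hosted miRNAs. The lists named here held 26, 13, 2 and 4 miRNAs, some of them in more than 1 list. The check is void for hosted miRNAs as a class, so the hosted counts are not read as a result about them. With the marker as a covariate 17 were called (11 higher, 6 lower; 1 hosted lower, 1 in the lists). Without the mice over a marker of 7, 20 were called (10 higher, 10 lower; 1 hosted higher, 1 lower, 1 in the lists). A Cq limit of 35 gave 29 (14 higher, 15 lower; 1 hosted higher, 2 lower, 3 in the lists), and the methods' t-test also 29 (14 higher, 15 lower; 2 hosted lower, 2 in the lists). Unscaled Cq gave 21 called with 4 higher (0 hosted higher, 2 lower, 2 in the lists), where the global mean Cq was 0.43 higher in OS mice. The 3 references gave 33 called with 11 lower (2 hosted lower, 3 in the lists), and the median 42 with 14 lower (5 hosted higher, 2 lower). Each panel alone gave 43 called (2 hosted lower), and all wells 52 (8 hosted lower, 3 in the lists). A Cq limit of 40 gave 50 called with 5 hosted miRNAs higher, and filling with Cq 38 gave 56 with 6 hosted higher. The cause of these shifts was not tested.

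Of the 15 other miRNAs given as called, miR-205 and miR-142-3p kept the call under every alternative read for them. Scaling to a single reference and the shared marker range were read only for both candidates. With the marker as a covariate miR-144 kept it as well, and the other 12 lost it (adjusted p = 0.069 to 0.28). Over the 14 fits without 1 mouse, the call was kept in 3 by miR-146b, in 4 each by miR-214, miR-212-3p, miR-466j and miR-16-1*, in 6 each by miR-674* and rno-miR-214, in 7 by miR-103, in 8 by miR-15a, in 11 each by miR-141 and miR-15b*, in 13 by miR-467b and in 14 by miR-144. Among single values, miR-23a changed sign unscaled (-0.29), with the marker as a covariate (-0.30) and without the mice over 7 (-0.045), and miR-191 unscaled (-0.011). The r of miR-335-5p with miR-214 in control mice was -0.14 by rank and -0.0207 scaled to all wells, and that with miR-205-5p in OS mice was 0.051 unscaled. The precision is limited by 8 and 6 mice and by the late Cq of miR-335-5p, which lies within 2 cycles of the limit of 37 in 1 control mouse.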
